A study of Mus musculus with 4 samples.

Results

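The genes described here are 10 regulators of energy metabolism in the heart, the peroxisome proliferator-activated receptors (Ppara, Ppard, Pparg), the retinoid X receptor Rxra, the estrogen-related receptors (Esrra, Esrrb, Esrrg), the PGC-1 coactivators (Ppargc1a, Ppargc1b) and the mitochondrial transcription factor Tfam. They were chosen by name, as all probes that the platform's annotation pairs with these symbols, which gave 10 of 16390 named genes and 11 of 16631 named probes. Left ventricular RNA of male C57BL/6 mice was measured at 14 weeks of age on 4 single arrays, 1 per group, with wild-type (WT) and STIM1KO mice each after sham surgery or after transverse aortic constriction (TAC). TAC ties a suture around the aortic arch and puts a pressure load on the left ventricle. It was done at 10 weeks over a wire of 0.3 mm, and hearts were taken 4 weeks later. Mean heart weight over body weight, stated in the labels without a unit, was 4.1 (sham) and 6.7 (TAC) in WT and 4.5 (sham) and 4.9 (TAC) in STIM1KO. They do not say how the STIM1 gene was altered, in which cells, or how many mice gave the RNA of an array.

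PPARs are nuclear receptors that bind fatty acids and their derivatives, pair with a retinoid X receptor on DNA, and switch on genes of fatty acid uptake, storage and oxidation. Estrogen-related receptors have no known natural estrogen ligand and bind DNA beside genes of the tricarboxylic acid cycle and the respiratory chain. PGC-1 proteins do not bind DNA themselves. They dock on PPARs and estrogen-related receptors and raise their activity, and the adult heart, which draws most of its energy from fatty acids, expresses them strongly. TFAM coats mitochondrial DNA and starts its transcription.

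Each group has 1 array, so no test, standard deviation or p-value was computed, and each value compares arrays rather than conditions. Intensities are quantile-normalized, have no unit, and are set against each other only for the same probe. A difference is a difference of log2 intensities, and a gene was called when it reached 2-fold, with 1.5-fold as a lower mark. For scale, each difference is set beside all 7020 named genes with a value on every array and a mean intensity of at least 29.3, and beside the middle 95% of the 2808 genes in the same class of mean level, with 5 classes of about equal size. Of the 10 members, 7 passed this level filter. Rxra, Esrrb and Ppard were below it, with mean intensities of 13.4, 15.2 and 4.77. The first quartile of the deposited values was between 5.38 and 5.64 on each array. As deposited, Ppard lay under it on every array but STIM1KO TAC, where it read 7.02. The check on genotype was partial. The Stim1 probe read 41.6 (sham) and 33.9 (TAC) in WT and 20.7 (sham) and 13.8 (TAC) in STIM1KO. Its mean over the arrays was below the level filter of 29.3, and where it lies in the gene is not given. Heart muscle genes marked the tissue. The 11 with a value on each array summed to 237406 (sham) and 252099 (TAC) in WT and 257494 (sham) and 287391 (TAC) in STIM1KO. Of 10 that passed the filter, 8 were higher and 0 lower in STIM1KO after sham surgery (median 0.23). After TAC 6 were higher and 3 lower (median 0.25). The part of heart muscle in the members' values was not tested.

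**Figure D1:**
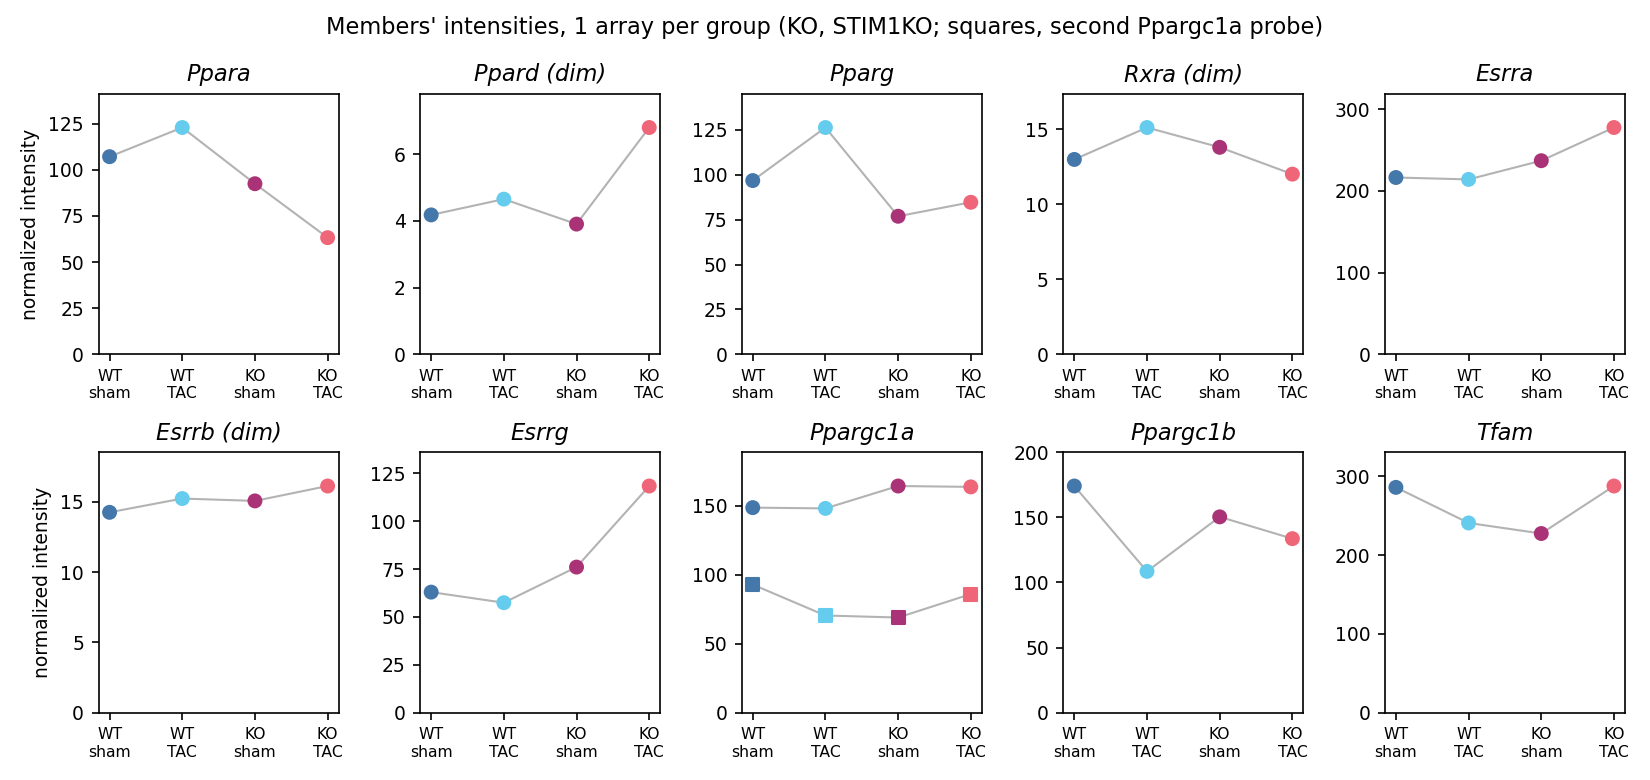
Quantile-normalized intensity (vertical axis, no unit, from 0) of each member on the 4 arrays, WT at left and STIM1KO at right, 1 point per array, with lines only to guide the eye. Squares are the second Ppargc1a probe, and genes marked dim were below the level filter. Esrrg is highest and Ppara lowest on STIM1KO TAC, and Ppargc1b is lowest on WT TAC.

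Ppara encodes the PPAR that drives fatty acid oxidation in heart and liver. Its intensity was 107 (sham) and 123 (TAC) in WT and 92.5 (sham) and 63.2 (TAC) in STIM1KO. The STIM1KO TAC array was therefore the lowest and WT TAC the highest, and the genotypes stood further apart after TAC than after sham surgery. The log2 difference between the TAC arrays was -0.96, which is 1.94-fold lower in STIM1KO, and it lay below the middle 95% of genes of like level (-0.86 to 0.76). A difference of that size or more was seen in 2.45% of the 7020 genes. Between the sham arrays Ppara differed by -0.21. Its response to TAC was 0.20 in WT and -0.55 in STIM1KO.

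Pparg encodes the PPAR of fat cells, which the heart also transcribes. It read 96.8 (sham) and 126 (TAC) in WT and 76.9 (sham) and 84.7 (TAC) in STIM1KO. Both STIM1KO arrays were below both WT arrays. The log2 difference was -0.33 between the sham arrays and -0.58 between the TAC arrays, each inside the middle 95% of genes of like level. The response to TAC was above 0 in both genotypes, at 0.38 in WT and 0.14 in STIM1KO. The third receptor, Ppard, is the broadly expressed PPAR and had a signal too dim to order the arrays. Its intensities ran from 3.91 in STIM1KO sham to 6.80 in STIM1KO TAC, and its difference of 0.80 in the STIM1KO response lay well inside the range of -1.32 to 1.44 of genes as dim.

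Pparg is transcribed by cell types besides heart muscle, and the markers of these cells differed between the arrays in several ways. Of 10 endothelial markers passing the filter, 9 were lower in STIM1KO than in WT after sham surgery and 9 after TAC. Their summed intensity, with 2 dimmer markers included, was 2338 (sham) and 1924 (TAC) in WT and 1636 (sham) and 1527 (TAC) in STIM1KO. Fibroblast markers summed to 5393, 4860, 4142 and 3318 in the same order. Dcn, which encodes decorin, gave most of the sum except on STIM1KO TAC, and without Dcn they summed to 2114, 1980, 1737 and 1884. Of 10 that passed the filter, 8 were lower in STIM1KO after sham surgery and 6 after TAC, where 4 were higher. Macrophage markers went another way, with sums of 2380, 2513, 2091 and 2691. Of 8 that passed, 7 were lower in STIM1KO after sham surgery and 6 were higher after TAC. Smooth muscle and pericyte markers summed to 2533, 2293, 2659 and 1991, an order set largely by Acta2, the brightest of them in WT sham. Without Acta2 the sums were 1531, 1594, 1565 and 1476, highest on WT TAC rather than STIM1KO sham. Of 7 that passed, 4 were higher and 3 lower in STIM1KO after sham surgery, and 3 were higher and 4 lower after TAC. Among fat cell markers, Adipoq, the fat cell hormone adiponectin, had a value on 3 arrays with a highest deposited intensity of 1.96, and Lep, which encodes leptin, on 2 arrays with a highest of 2.11. The 7 fat cell markers measured on all 4 arrays summed to between 11558 and 13294, nearly all of it from Fabp4, which endothelial cells also express. The part these cells have in the values of Pparg and Ppara was not tested. In RNA of whole tissue, fewer cells of a type and less RNA per cell cannot be told apart.

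Rxra, the retinoid X receptor that partners PPARs, read 13.0 (sham) and 15.1 (TAC) in WT and 13.8 (sham) and 12.0 (TAC) in STIM1KO, with no difference above 0.33 in size. Among its relatives, Rxrg, the form found mainly in heart and skeletal muscle, was above the level filter and differed more. It read 250 (sham) and 359 (TAC) in WT and 356 (sham) and 271 (TAC) in STIM1KO. TAC thus went with a higher value in WT (0.52) and a lower value in STIM1KO (-0.39). Rxrb, the widely expressed form, had 94.8, 115, 93.1 and 76.4 in the same order, with responses of 0.28 in WT and -0.29 in STIM1KO. Like Ppara, Rxrg and Rxrb were above 0 in the WT response and below 0 in the STIM1KO response. The dim Rxra had these signs too, at 0.22 and -0.20. Both lay well inside the ranges of genes as dim (-0.73 to 0.72 and -1.08 to 1.14), so its signs carry little weight. Of the 8 partner and related receptors passing the filter, 7 were above 0 in WT, against 47.3% of all 7020 genes, and 5 in STIM1KO, against 49.4%. None of the 8 reached 2-fold.

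Promoter windows of 300 bases, from 250 before to 50 after a transcription start, were taken from RefSeq on build GRCm38.p6, which is not stated to be the build behind the array. They matched 9 of the 10 members, all but Ppargc1b. Those of Ppara and Esrrg are shown because these genes stood furthest apart between the TAC arrays, a Pparg window because it holds the hexamer AGGTCA that PPARs, retinoid X receptors and estrogen-related receptors bind, and Ppargc1a because its transcription is known to respond to cyclic AMP. Each is printed 5′ to 3′ on the strand of its gene, and capitals mark the motifs found by a search of both strands. Ppara lies at chr15:85735526-85735825 on the plus strand, the first of 4 Esrrg windows at chr1:187608756-187609055 on the plus strand, the second of 3 Pparg windows at chr6:115362099-115362398 on the plus strand, and Ppargc1a at chr5:51567676-51567975 on the minus strand.
Ppara: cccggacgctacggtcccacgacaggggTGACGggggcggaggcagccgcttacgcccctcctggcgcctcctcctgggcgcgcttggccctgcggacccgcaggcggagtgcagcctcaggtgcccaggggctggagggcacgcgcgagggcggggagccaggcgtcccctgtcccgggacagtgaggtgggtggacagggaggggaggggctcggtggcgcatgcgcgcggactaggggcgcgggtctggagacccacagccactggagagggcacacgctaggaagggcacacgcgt
Esrrg: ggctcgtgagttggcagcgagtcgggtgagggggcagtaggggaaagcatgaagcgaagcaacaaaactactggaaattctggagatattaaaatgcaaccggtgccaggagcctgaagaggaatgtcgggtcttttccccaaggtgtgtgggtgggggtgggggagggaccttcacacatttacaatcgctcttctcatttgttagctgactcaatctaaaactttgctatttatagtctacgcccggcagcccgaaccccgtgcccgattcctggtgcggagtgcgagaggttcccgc
Pparg: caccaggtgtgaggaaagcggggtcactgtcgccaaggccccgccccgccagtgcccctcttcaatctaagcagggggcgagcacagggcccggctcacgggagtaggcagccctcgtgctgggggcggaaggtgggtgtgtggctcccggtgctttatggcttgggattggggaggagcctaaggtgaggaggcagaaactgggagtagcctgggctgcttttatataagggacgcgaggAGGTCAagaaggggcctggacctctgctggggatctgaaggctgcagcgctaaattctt
Ppargc1a: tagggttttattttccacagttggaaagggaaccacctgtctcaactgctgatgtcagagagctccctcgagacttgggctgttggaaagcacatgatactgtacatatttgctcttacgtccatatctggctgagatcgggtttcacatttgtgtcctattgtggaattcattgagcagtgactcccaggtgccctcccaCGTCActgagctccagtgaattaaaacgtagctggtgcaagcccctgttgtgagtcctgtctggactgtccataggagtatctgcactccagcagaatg

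The motifs searched were this hexamer, its extended form TNAAGGTCA that estrogen-related receptors prefer, a direct repeat of the hexamer with 1 base between the copies, the cyclic AMP response element TGACGTCA and its core TGACG, and the E-box CACGTG. The hexamer is part of the extended form and of the repeat, and the core is part of the response element. In Pparg, the hexamer began 9 bases before the start in the window shown and 28 bases before it in the first window, and Rxra held it 2 times in its second window. It occurred in 16.3% of all 32851 windows. The core began 222 bases before the start of Ppara and, on the opposite strand, 49 bases before that of Ppargc1a, and 20.8% of all windows hold it. It was also found in the windows of Ppard and Esrrb. The extended form, the direct repeat, the full response element and the E-box were not found in any member's windows, and occur in 1.28%, 0.0396%, 1.79% and 7.15% of all windows. None of the motifs was found in any of the 4 Esrrg windows. A match is a description of the letters and not a binding site.

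Esrrg encodes the estrogen-related receptor of highly oxidative tissues, which in mice is needed for the switch to oxidative metabolism in the heart after birth. It read 63.0 (sham) and 57.4 (TAC) in WT and 76.0 (sham) and 118 (TAC) in STIM1KO. Both STIM1KO arrays were above both WT arrays, and STIM1KO TAC was far above the other 3. Between the TAC arrays the log2 difference was 1.04, which is 2.06-fold higher in STIM1KO and outside the middle 95% of genes of like level (-0.86 to 0.76). A difference as large was seen in 1.54% of the 7020 genes. Between the sham arrays Esrrg differed by 0.27. The response to TAC was -0.13 in WT and 0.64, or 1.56-fold higher, in STIM1KO. The second of these was inside the middle 95% for that pair of arrays (-0.79 to 0.83), because genes in general differed more there.

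Esrra encodes the estrogen-related receptor that PGC-1 proteins act through on many respiratory genes. It moved in the direction of Esrrg with smaller steps, reading 216 (sham) and 214 (TAC) in WT and 237 (sham) and 277 (TAC) in STIM1KO. The log2 difference between the TAC arrays was 0.37, a size reached by 35.5% of the 7020 genes, and its response was -0.02 in WT and 0.23 in STIM1KO. The WT value has no settled sign, since it was 0.0078 after median centring and 0.04 for the values as deposited. Esrrb, the form known mainly from stem cells and placenta, was below the filter and read between 14.3 in WT sham and 16.1 in STIM1KO TAC, the smallest spread of the 3.

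**Figure D2:**
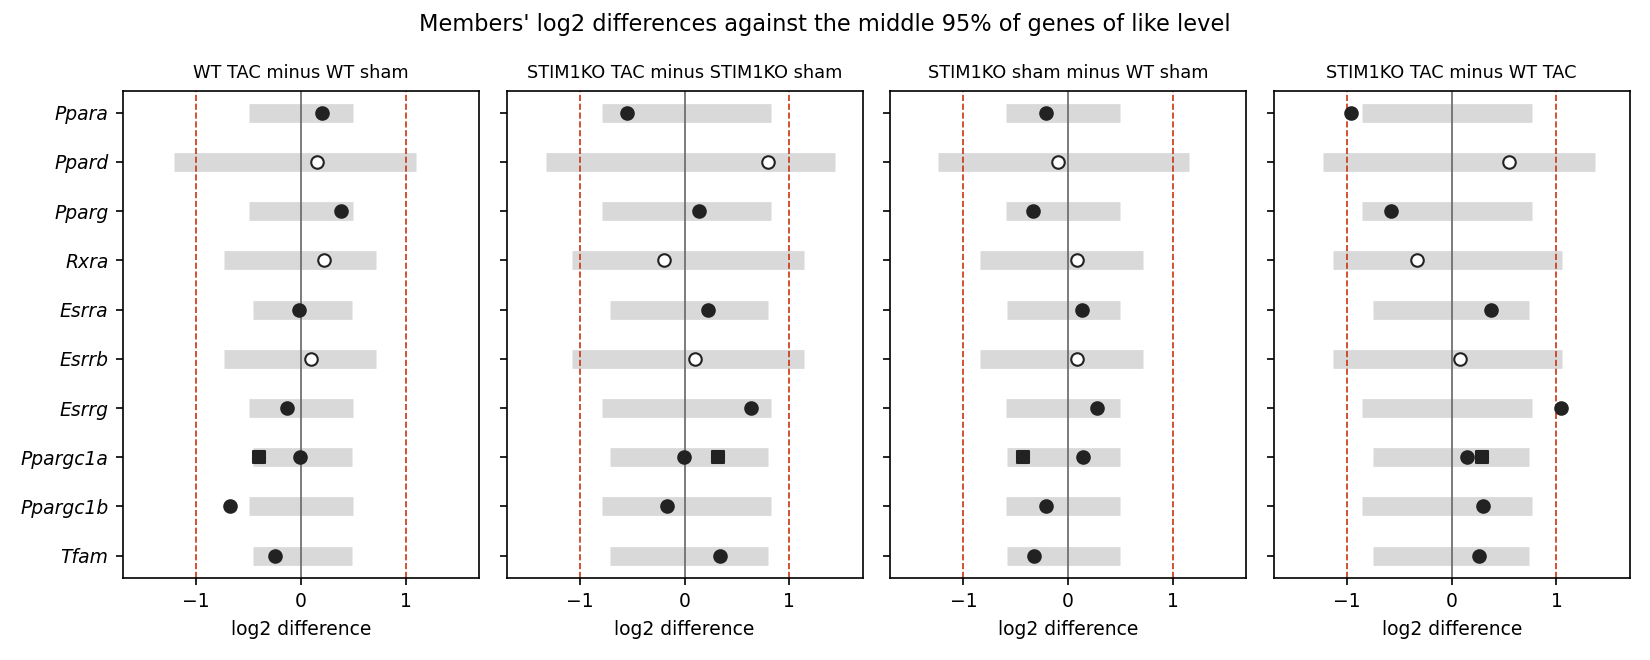
Log2 difference (horizontal axis) of each member in the 4 comparisons between arrays. Filled points passed the level filter, open points did not, squares are the second Ppargc1a probe, grey bars span the middle 95% of the 2808 genes in the same class of mean level, and dashed lines mark 2-fold. Ppargc1b in the WT response, and Ppara and Esrrg between the TAC arrays, lie outside their grey bars.

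Ppargc1b encodes PGC-1beta, and of all members it differed most between the WT arrays. It read 174 (sham) and 108 (TAC) in WT and 150 (sham) and 134 (TAC) in STIM1KO. WT TAC, from the group with the highest mean heart weight over body weight, was the lowest, and a link between the 2 was not tested. The WT response was -0.68, or 1.60-fold lower, outside the middle 95% of genes of like level (-0.49 to 0.50), and 1.60% of the 7020 genes differed as much. In STIM1KO the response was -0.17. The genotypes differed by -0.21 after sham surgery and by 0.30 after TAC.

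Ppargc1a encodes PGC-1alpha, the coactivator induced by fasting, exercise and cold, and its 2 probes gave different pictures. The brighter probe read 149 (sham) and 148 (TAC) in WT and 164 (sham) and 164 (TAC) in STIM1KO. On it, neither response differed from 0 by more than 0.01, and STIM1KO was higher by 0.14 after each operation. The dimmer probe read 92.9, 70.5, 69.0 and 86.0 in the same order, with responses of -0.40 in WT and 0.32 in STIM1KO. It placed STIM1KO lower by 0.43 after sham surgery and higher by 0.29 after TAC. The probes therefore had the same sign in the WT response and between the TAC arrays, and opposite signs in the other 2 comparisons. Which transcripts of Ppargc1a each probe detects is not given, and the direction of this gene is uncertain.

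Tfam, which sets the copy number and transcription of mitochondrial DNA, read 286 (sham) and 241 (TAC) in WT and 228 (sham) and 288 (TAC) in STIM1KO. WT sham and STIM1KO TAC were alike, and the other 2 arrays were lower. Its response was -0.25 in WT and 0.34 in STIM1KO, and the STIM1KO response minus the WT response was 0.59, a size reached by 13.9% of the 7020 genes. STIM1KO differed from WT by -0.33 after sham surgery and by 0.26 after TAC. Each of the 4 differences lay inside the middle 95% of genes of like level.

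In the WT response, 0 of the 7 members above the level filter reached 2-fold, where 0.313% of the 7020 genes did, and Ppargc1b alone passed 1.5-fold, where 2.85% did. In the STIM1KO response, 0 reached 2-fold against 1.85%, and Esrrg passed 1.5-fold against 14.4%. After median centring Esrrg fell short of 1.5-fold there (0.56) and Ppara passed it (-0.61). Between the sham arrays, 0 reached 2-fold against 0.556%, and 0 reached 1.5-fold against 3.96%. Between the TAC arrays, Esrrg reached 2-fold against 1.97%, and Esrrg and Ppara passed 1.5-fold against 14.5%, joined by Pparg after median centring (-0.64) and as deposited (-0.63). The values just inside and just outside 2-fold there were those of Esrrg (1.04) and Ppara (-0.96). Their order depends on the scaling. As deposited, Ppara was at -1.01 and Esrrg at 0.99, and after median centring the values were again -1.01 and 0.99, so that Ppara and not Esrrg was called. The median difference of the 7 members was -0.02 in the WT response, where its sign turned with median centring, for deposited values and without the filter, 0.14 in the STIM1KO response, -0.21 between the sham arrays and 0.26 between the TAC arrays, and that of the 7020 genes was -0.01, -0.00, 0.00 and 0.01. The members' value between the sham arrays depends on which of them are included, and was -0.0091 with all 10 and -0.04 for the 4 that pass a filter at the 75th percentile.

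The design crosses genotype with operation, and the STIM1KO response minus the WT response compares all 4 arrays. No member reached 2-fold in it, where 2.15% of the 7020 genes did, and 3 of 7 passed 1.5-fold, where 14.1% did. These were Esrrg at 0.77, Tfam at 0.59 and Ppara at -0.75, of which Tfam was just past the mark and fell short of it with median centring (0.48), as deposited (0.55) and with the offset (0.575). Each of the 3 lay inside the middle 95% of genes of like level, as did the other members. That range was -0.80 to 0.88 for Esrrg and Ppara and -0.67 to 0.84 for Tfam. Ppargc1b was at 0.51, Esrra at 0.24 and Pparg at -0.25. Of the 7, Esrrg, Tfam, Ppargc1b and Esrra were thus above 0, and Ppara and Pparg below 0, with a median of 0.24 against -0.02 for all genes. The brighter Ppargc1a probe was at 0.00 and the dimmer at 0.72. All of these values include both sham arrays, so they are not separate from the comparisons above.

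**Figure D3:**
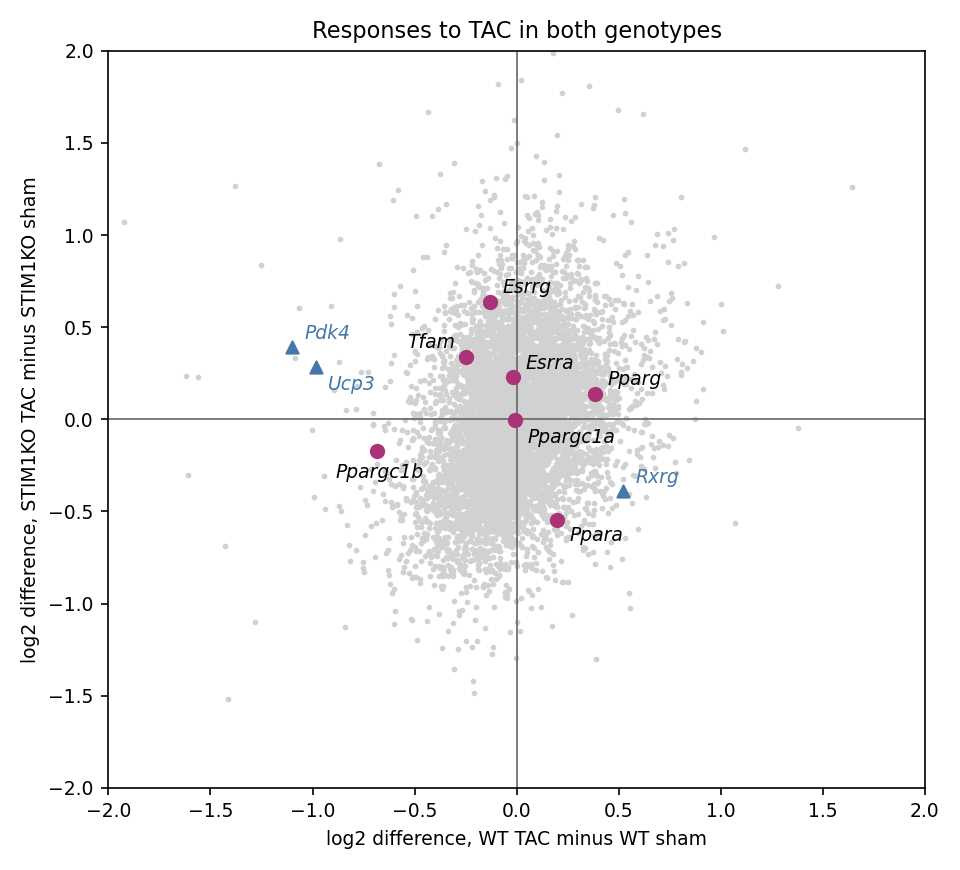
Log2 response to TAC in WT (horizontal axis) against that in STIM1KO (vertical axis) for the genes passing the level filter (grey, 7014 of 7020 within the axes), the 7 members among them (purple circles) and 3 genes from the pathway lists (blue triangles). Esrrg and Tfam sit at upper left, Ppara and Rxrg at lower right, and Ppargc1b, Pdk4 and Ucp3 at the far left.

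Genes that PPARs are known to switch on gave no common direction. Of 40 listed, 31 were measured on each array and 30 were bright enough for the filter. In the WT response 12 lay above 0 and 17 below it. The median was -0.03, or 0.02 with the values as deposited, against -0.01 for all genes. Of the 30, 1 reached 2-fold there, where 0.313% of the 7020 genes did. Between the TAC arrays 17 lay above 0 and 13 below it. The median was 0.13, or 0.02 after median centring and 0.03 as deposited, against 0.01. Again 1 of the 30 reached 2-fold, where 1.97% of the 7020 genes did. That gene was Pdk4 in both cases. Pdk4 encodes the kinase that shuts off pyruvate dehydrogenase when fatty acids are burned, and it is a target of PPARs and of estrogen-related receptors with PGC-1. It read 222 (sham) and 104 (TAC) in WT and 171 (sham) and 224 (TAC) in STIM1KO. The WT response was -1.10 and the STIM1KO response 0.39, and the TAC arrays differed by 1.11. As for Ppargc1b, WT TAC was the lowest array.

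Ucp3, a mitochondrial carrier of muscle that PPARs induce, had a similar course, reading 86.5 (sham) and 43.7 (TAC) in WT and 51.7 (sham) and 63.0 (TAC) in STIM1KO. Its WT response of -0.98 fell just short of 2-fold, and its STIM1KO response was 0.29. Ehhadh, an enzyme of peroxisomal fatty acid oxidation, read 60.3, 42.4, 39.0 and 57.0 in the same order, with responses of -0.51 in WT and 0.55 in STIM1KO. Pdk4, Ucp3 and Ehhadh were the 3 of 30 genes of the list at 2-fold in the STIM1KO response minus the WT response. They were at 1.49, 1.27 and 1.06, and with the offset Ehhadh fell short of 2-fold at 0.95. Of the 7020 genes, 2.15% reached 2-fold there. Genes of mitochondrial fatty acid uptake and oxidation went both ways. Cpt1b, the carnitine palmitoyltransferase of muscle and the gate of fatty acid entry into mitochondria, read 1065, 1228, 1462 and 1712, with responses of 0.21 in WT and 0.23 in STIM1KO. Acadm, the medium-chain dehydrogenase, was at 0.20 and -0.16, and Cd36, a fatty acid transporter, at 0.19 and 0.01. Cpt2, the carnitine palmitoyltransferase of the inner membrane, was lower after TAC in both genotypes, at -0.35 and -0.53. Between the TAC arrays, Cpt1b was higher in STIM1KO (0.48) and Cpt2 lower (-0.43). Txnip binds thioredoxin and is better known as a gene induced by glucose than by PPARs. It was the only gene of the list at 2-fold in the STIM1KO response, at 1.19, where 1.85% of the 7020 genes were. Acsl1, which activates long-chain fatty acids, was lower after TAC in both genotypes, at -0.58 and -0.51. Ucp2, an uncoupling protein, was lower in STIM1KO by 0.40 after sham surgery on the log2 scale and by 0.82 after TAC.

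Genes that estrogen-related receptors and PGC-1 proteins are known to act on also split both ways. Of 49 listed, 46 passed the filter. In the WT response 20 lay above 0, 25 below it, and the median was -0.10, or 0.0023 for the intensities as deposited, against -0.01 for all genes. Between the TAC arrays 25 lay above 0, 20 below it, and the median was 0.07 against 0.01 for all genes. It turned to -0.02 with median centring and to -0.01 for deposited values. Subunits of the same respiratory complex went opposite ways there. Cox4i1, a subunit of cytochrome c oxidase made in most tissues, was higher in STIM1KO TAC by 0.60. Cox6a2, a heart and muscle subunit of the same enzyme, was lower at -1.02, or -0.99 when empty cells were kept in the normalization. Cox6a2 read 23234 (sham) and 26444 (TAC) in WT and 23903 (sham) and 13038 (TAC) in STIM1KO. Atp5a1, the alpha subunit of ATP synthase, read 5227, 5901, 5534 and 11094 in the same order, a STIM1KO response of 1.003 that was 0.99 with median centring. Atp5b, the beta subunit, had a response of -0.37. Of the 46 genes, 1 reached 2-fold between the TAC arrays (Cox6a2), where 1.97% of the 7020 genes did. In the STIM1KO response 1 did (Atp5a1), against 1.85%. In the WT response and between the sham arrays 0 did, against 0.313% and 0.556%. Among tricarboxylic acid cycle enzymes, Mdh2 and Cs had STIM1KO responses of -0.79 and -0.61, and Sdha, a subunit of succinate dehydrogenase, was higher in STIM1KO by 0.50 after sham surgery and 0.53 after TAC.

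**Figure D4:**
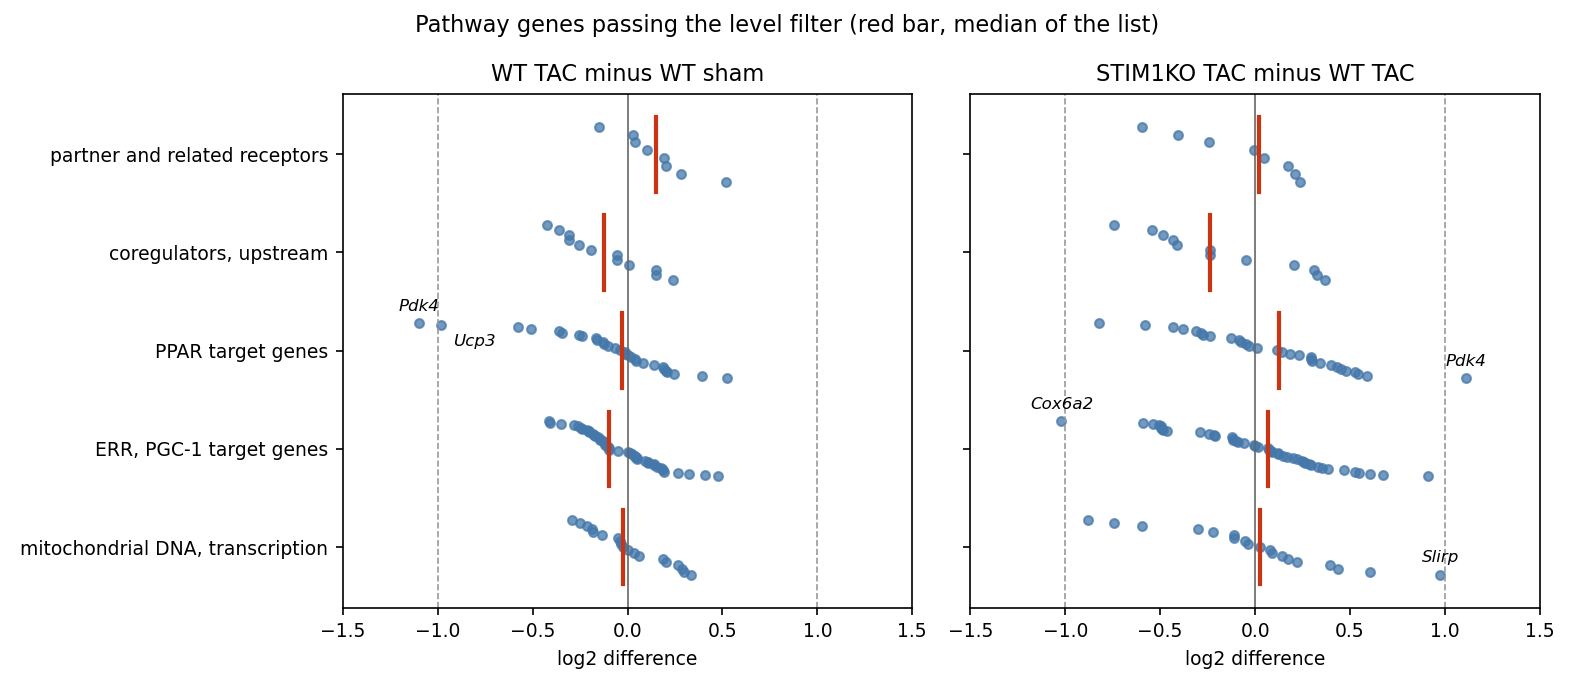
Log2 difference (horizontal axis) of each gene passing the level filter in 5 pathway lists, in the WT response (left) and between the TAC arrays (right), with 1 point per gene, a red bar at the median of the list and dashed lines at 2-fold. Medians lie between -0.24 and 0.15, and Pdk4 lies past 2-fold in both panels, beside Ucp3 (-0.98) at left and opposite Cox6a2 (-1.02) at right.

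Of 25 coregulators and upstream enzymes listed, 12 passed the filter. None of the 12 reached 2-fold in any of the 4 comparisons (0.313% to 1.97% of the 7020 genes did). Above 0 were 4 of them in the WT response, 5 in the STIM1KO response, 3 between the sham arrays and 4 between the TAC arrays, where 47.3%, 49.4%, 50.1% and 51.1% of all 7020 genes were. The medians were -0.12, -0.21, -0.20 and -0.24, and the last was -0.0061 without the filter and -0.06 with that at the 75th percentile. Prkaa2, the AMP-activated kinase subunit that is dominant in heart and phosphorylates PGC-1alpha, read 136 (sham) and 113 (TAC) in WT and 120 (sham) and 67.7 (TAC) in STIM1KO. Its STIM1KO response was -0.82. Hdac5, a histone deacetylase that represses Ppargc1a through MEF2 factors, read 1198, 892, 848 and 611 in the same order and was lower in each of the 4 comparisons, from -0.43 to -0.55. Sirt3, a mitochondrial deacetylase induced by PGC-1alpha with Esrra, was at -0.36 in WT and 0.22 in STIM1KO. Klf15, a partner of PPARalpha in the heart, was at -0.05 and 0.46.

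Genes that maintain and transcribe mitochondrial DNA, Tfam aside, had 19 of 26 above the filter. None of the 19 reached 2-fold in any of the 4 comparisons (0.313% to 1.97% of the 7020 genes did). Between the sham arrays 14 were higher in STIM1KO and 4 lower, with a median of 0.10, led by Polg (0.58), the catalytic subunit of the mitochondrial DNA polymerase, Lrpprc (0.54), which stabilizes mitochondrial messenger RNA, and Twnk (0.50), the mitochondrial helicase. In the STIM1KO response 6 lay above 0, 13 below it, and the median was -0.15. Tfb2m, the factor that melts mitochondrial promoters together with TFAM, was at -0.68 there and Mgme1, a mitochondrial exonuclease, at -0.91, while Slirp, the partner of LRPPRC, was at 0.87. Tfam had the opposite sign to Tfb2m in this response, with 0.34.

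The genes whose course over the 4 arrays was nearest to a member were found by the distance between log2 values, each gene centred on its own mean, among the 7020 genes. For Esrrg, whose range was 1.04, they were Togaram1 at a distance of 0.08, Rbp3 at 0.09 and Dhps at 0.10. For Ppara, with a range of 0.96, they were Borcs8 (0.05), Sfswap (0.06) and Vim (0.09), of which Vim encodes vimentin, the filament protein of fibroblasts and endothelial cells. For Pparg, with a range of 0.72, they were Emd (0.11), Serf1 (0.12) and Pik3r6 (0.12). With 4 arrays, many genes come close by this measure.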

How the data were processed

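Left ventricular RNA was measured on 4 arrays, 1 per group, grouped by title. The authors deposited 1 linear intensity per probe. Per the labels' protocols amplified aRNA carrying amino allyl groups received the dye Cy5. In the deposited intensity values each array has a median of about 20.0. The scanner and the background correction were not stated in the sources used here.

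Of 23473 probes, 19607 had a value on all 4 arrays. These were taken to log2 and quantile-normalized (array medians over them spread over 0.101), and the brightest probe stood for a gene. The median of mean log2 intensity over 14039 genes, 4.87, was the level filter and left 7020. Older symbols were updated through a table of assembly GRCm38.p6. With 1 array per group no test was made, and precision is limited by their number. The members and lists were chosen with earlier results of these data known. All members were named. From each list, genes at 2-fold, and otherwise up to 4 with the largest differences in a comparison, could be named, similar courses were sought for the 3 members of widest range among those passing the filter, and Adipoq, Lep, Fabp4, Cpt1b, Acadm, Cd36, Dcn, Cox4i1, Atp5b, Sdha, Cs, Ehhadh, Sirt3 and Klf15 were added after their values were seen where the rule did not take them. Alternatives were median centring, deposited values, quantile normalization with empty cells kept as missing (limma 3.58.1), no filter, a 75th percentile filter, an offset of 5.49, the mean over probes, and 1.5-fold and 3-fold thresholds. The normalization and differences were run on simulated arrays with 3-fold changes put into WT TAC alone. This does not show how well smaller differences, or those on STIM1KO TAC, are read. The analysis used Python 3.11.15 and pandas 2.3.3. The protein comparison planned for the receptors was not made.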

Additional observations from a re-analysis of the deposited data

Results flagged for a closer look

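Several members had values of opposite sign under the same contrast. With 1 array per group the sign rests on single arrays, and these differences between genotypes or operations were not tested. For TAC against sham, the log2 difference was 0.20 in WT and -0.55 in STIM1KO for Ppara, and 0.22 and -0.20 for the dim Rxra. The other direction was seen for Esrrg, at -0.13 in WT and 0.64 in STIM1KO, for Tfam, at -0.25 and 0.34, and for Esrra, at -0.016 and 0.23. The WT sign of Esrra turned with median centring and for deposited values. For STIM1KO against WT, Ppargc1b differed by -0.21 after sham surgery and by 0.30 after TAC, and Tfam by -0.33 and 0.26. The dim Ppard differed by -0.10 and 0.55 in the same comparisons, and the dim Rxra by 0.087 and -0.33. Of these values, none lay outside the middle 95% of genes of like level.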

How the results depend on the processing

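Of 40 differences of members in the 4 comparisons, 36 kept their sign in all the settings run and 4 did not. Those 4 were the WT response of Esrra and 3 differences of Ppargc1a. Not every setting could change a sign. The filters leave a member's difference as it is, and the mean over probes alters only that of Ppargc1a. Averaging the Ppargc1a probes moved its difference between the sham arrays from 0.14 to -0.14. At 1.5-fold the number of members called was 1 in the WT response, 1 in the STIM1KO response, 2 between the TAC arrays and 3 in the STIM1KO response minus the WT response. Chosen after seeing the data, the same counts under other scalings, the offset and the mean over probes were 1, 1, 2 to 3 and 2 to 3. With median centring Ppara replaced Esrrg in the STIM1KO response, Pparg was added between the TAC arrays and Tfam was lost in the last comparison. Pparg was also added and Tfam lost for deposited values, and Tfam was lost with the offset. Between the TAC arrays, 1 member was called at 2-fold, and this became 0 with the 75th percentile filter, which Esrrg does not pass, 0 with the offset, where Esrrg was at 0.98, and 0 at 3-fold. With median centring and deposited values the count stayed at 1 but the gene was Ppara. No median of the members moved by as much as the SD of single genes, which is a wide mark for a median and does not show that the medians are stable. The median between the sham arrays went from -0.21 to -0.0091 without the filter, and that of the WT response changed sign. No paired analysis was possible because each group has 1 array. Dim signal limits Ppard, Rxra and Esrrb, and 1 array per group limits every value.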
